A study of Mus musculus with 2 samples.

Results

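The genes described here are 10 immediate early transcription factor genes and their close companions, namely Fos, Fosb, Fosl2, Jun, Junb, Jund, Egr1, Egr2, Egr3 and Ier2. They were taken by name from the deposited table, as probe sets annotated to that single gene symbol, out of 19938 genes with such probe sets. All 10 were measured, each by 1 probe set, and the rule that chose them uses names and no measured value, though it was written with earlier results of these data known. Of the 10, 5 lay above the detection floor, an intensity of 85.9 set from olfactory receptor genes, which brain precursor cells hardly use.

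The study compared forebrain neural precursor cells from E11.5 mouse embryos of the Jcl:ICR strain that had received either a control retrovirus or an HMGN1 retrovirus. HMGN1 is a nucleosome-binding protein of chromatin. Both cultures were kept with the mitogens FGF2 and EGF until 3 days after infection, then dissociated, replated on poly-D-lysine and held for 1 day without FGF2 and EGF before total RNA was taken. There was 1 array per virus. The groups therefore share the mitogen withdrawal and the replating, and no array shows the cells with mitogens. The sources used here do not give the share of cells that carried a virus.

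Immediate early genes are switched on within minutes by growth factors, neuronal activity or stress, without new protein being made first, and their messages decay quickly. Fos proteins pair with Jun proteins through leucine zippers to form AP-1, which binds the sequence TGANTCA, whereas Egr proteins are zinc finger factors that bind GC-rich sites of the form GCGNGGGCG. In neural precursors FGF2 and EGF signal through receptor tyrosine kinases to ERK, which activates Elk factors bound with SRF at CArG boxes, and kinases downstream of ERK and cyclic AMP act on CREB at the site TGACGTCA.

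The stretches before the annotated start sites of 4 of these genes are shown as examples, with such elements or other short promoter motifs marked. Sequences are from the RefSeq promoter table (build GRCm38.p6), which held windows for 7 of the 10 genes, each reaching from 250 bases before the start to 50 after it. Printed are the 120 bases just before the start, 5′ to 3′ on the gene's strand, and capitals mark the motifs found on either strand. They lie at chr12:85473770-85473889 (plus strand) for Fos, chr4:95052223-95052342 (minus strand) for Jun, chr5:32136352-32136471 (plus strand) for Fosl2, and chr10:67537446-67537565 and chr10:67537749-67537868 (plus strand) for 2 of the 5 annotated starts of Egr2, neither of them the most upstream or the most downstream.
Fos: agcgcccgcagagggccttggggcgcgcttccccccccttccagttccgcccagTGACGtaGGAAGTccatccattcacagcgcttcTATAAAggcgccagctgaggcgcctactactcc
Jun: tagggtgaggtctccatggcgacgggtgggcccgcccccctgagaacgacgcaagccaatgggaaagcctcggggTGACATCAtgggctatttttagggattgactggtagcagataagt
Fosl2: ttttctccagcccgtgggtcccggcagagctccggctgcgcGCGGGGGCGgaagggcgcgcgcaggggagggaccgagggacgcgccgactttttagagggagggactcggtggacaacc
Egr2, first stretch: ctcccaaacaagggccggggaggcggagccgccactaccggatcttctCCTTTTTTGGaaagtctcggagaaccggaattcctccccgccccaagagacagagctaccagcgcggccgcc
Egr2, second stretch: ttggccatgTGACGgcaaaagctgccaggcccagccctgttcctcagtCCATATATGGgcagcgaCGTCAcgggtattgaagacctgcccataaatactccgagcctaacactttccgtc

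In the Fos stretch the capitals mark TGACG, the first part of the CREB site, at positions -66 to -62 from the start, the ETS core GGAAGT at -59 to -54 and the TATA box TATAAA at -33 to -28. The Jun stretch holds TGACATCA, the variant AP-1 site of the Jun promoter, at -45 to -38. The Fosl2 stretch holds an Egr site at -79 to -71. Each Egr2 stretch holds a CArG box at -72 to -63, and the second one also holds TGACG on each strand. Among all 32851 windows of the table, searched over their full 300 bases on both strands, the CArG box was found in 1.63%, TGACGTCA in 1.79%, TGANTCA in 7.81%, TGACATCA in 3.62%, GCGNGGGCG in 5.55%, TATAAA in 13.6%, TGACG in 20.8% and GGAAGT in 23.8%. TGACG is part of TGACGTCA, so those counts overlap. Of the 7 genes with a window, none held TGACGTCA or TGANTCA, and Fosb was the other gene with an Egr site. Egr2 alone held a CArG box, and the window of Jund held none of the motifs searched. The single window held for Jund may not lie at its main start site, and no member's window stands for all of its regulatory sequence. A match is a run of letters and was not tested as a binding site.

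The arrays gave a linear intensity per probe set, with medians of 101 (control virus) and 98.8 (HMGN1 virus). Differences below are HMGN1 virus minus control virus on the scale log2(intensity + 16), where the offset of 16 shrinks the differences of dim genes. With 1 array per virus there is no replicate and no test, so every difference describes these 2 RNA samples. As measures of scatter, the SD of log2 differences was 0.0891 between probe sets of the same gene (683 genes with several) and 0.111 across all 11325 genes above the floor, whose median was 0.027. The first measures disagreement of probe sets on the same 2 RNA samples, and neither measures variation between replicate cultures. Hmgn1 itself read 230 on the control virus array and 348 on the other (0.57), in the direction of the label, though the sources used here do not say whether its probes lie in the part carried by the virus. All 12 listed markers of neural precursors (among them Nes, Sox2 and Pax6) were above the floor, as were 10 of 10 neuron, 6 of 8 astrocyte, 8 of 9 oligodendrocyte lineage and 5 of 8 mesenchyme markers. Endothelial markers (0 of 7) and the erythroid markers analysed (0 of 4) were not, and 2 of 8 microglia markers were. Some of these markers differed more than any member. The astrocyte genes Gfap (0.58), Aqp4 (0.32) and Gja1 (0.28) and the neuron genes Syt1 (0.27) and Stmn2 (0.22) were higher with HMGN1. So were the oligodendrocyte lineage genes Enpp6 (0.46), Gpr17 (0.33) and Mbp (0.28), and the precursor genes Sox1 (-0.35) and Prom1 (-0.24) were lower. Other markers of the same types went the other way, such as Aldoc (-0.072) and Olig2 (-0.16). Above the floor 5 astrocyte markers were higher and 1 lower. For the oligodendrocyte lineage these counts were 5 and 3, for neurons 5 and 5, and for precursors 5 and 7. The median difference was 0.18 over the astrocyte, 0.075 over the oligodendrocyte lineage, 0.034 over the neuron, -0.016 over the precursor and -0.039 over the mesenchyme markers above the floor. Their part in the values of the AP-1 and Egr genes was not tested.

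The AP-1 and Egr genes differed little between the viruses. Of the 5 above the floor, 4 had the lower value with HMGN1 and 1 the higher, and their median log2 difference was -0.071. These directions were the same under each scaling tried. Over all genes above the floor 38.4% were lower and 60.1% higher. Only Jund was at least 1.1-fold lower, a size that 7.20% of all genes above the floor reached, and no member was higher by that size (background 13.1%). After centring on the median of all genes Egr1 reached that size too, at -0.14, as did 10.5% of all genes downward. No member reached a log2 difference of 0.322 in either direction, a size that 0.521% of all genes reached downward and 0.494% upward. In bulk RNA, fewer cells of a type and less RNA per cell cannot be told apart.

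**Figure D1:**
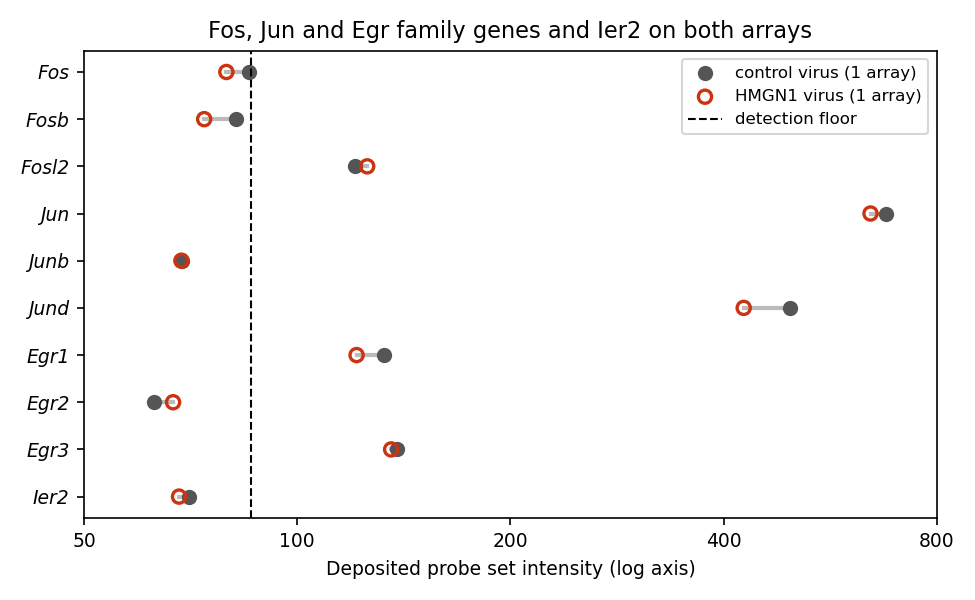
Deposited intensity of each gene (log axis) on the control virus array (filled grey) and the HMGN1 virus array (open red), 1 array each, with the detection floor dashed. Paired points lie close together, the widest gap above the floor is that of Jund (497 and 427), and Fos, Fosb, Junb, Egr2 and Ier2 lie left of the floor; intensities of different probe sets are not comparable with each other.

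The Jun genes encode the AP-1 subunits that can pair with themselves or with Fos proteins. Jund, the subunit known for steady expression in resting cells, read 497 in the control and 427 with HMGN1, which is -0.21 on the log2 scale (1.16-fold lower). This was the largest difference among the 10 genes, and 268 of the 11325 genes above the floor (2.37%) had a lower one. Jun, the partner most used by Fos and a target of JNK, read 678 and 645, a difference of -0.071. That is less than the SD between probe sets of a gene, and 18.0% of all genes above the floor were lower still. Junb, which is induced with Fos and can restrain Jun, read 68.8 and 68.6, both under the floor, with a difference of -0.0033. Its sign was the opposite after quantile normalization and with either trend removed, so Junb had no direction.

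The Fos genes encode the subunits that bind DNA only together with a Jun protein. Fosl2, which encodes Fra-2, was the sole Fos gene above the floor, at 121 in the control and 126 with HMGN1. It was the single member above the floor that was higher, by 0.050, close to the median of all genes. Fos, the first subunit made after a stimulus, read 85.5 and 79.4, just under the floor (-0.089). Fosb, known for a stable splice form that builds up with repeated stimulation, read 82.0 and 73.9 (-0.13). Among dim genes scatter was wide. Across 1027 olfactory receptor genes the SD of the differences was 0.156 around a median of -0.050. Of these differences, 38.5% were lower than that of Fos and 31.4% lower than that of Fosb. The olfactory receptor genes were not matched in intensity to Fos and Fosb, as 95% of their probe sets lay under the floor. Fosl1, the remaining Fos family gene, was under the floor at 54.6 and 57.8 (0.064).

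Of the Egr genes, Egr1 and Egr3 were above the floor. Egr1, the general growth factor and activity response gene of the family, read 133 with the control virus and 121 with HMGN1, a difference of -0.11. Of all genes above the floor, which include much brighter ones, 9.87% were lower than this. Of the olfactory receptor genes, most of them dimmer than Egr1, 33.0% were lower. Egr3, a member also induced by neuronal activity, read 138 and 136 (-0.022), within the scatter between probe sets of a gene. Egr2, the hindbrain and Schwann cell myelination factor, was under the floor at 62.8 and 66.8, the other member with the higher value in the HMGN1 virus sample (0.070). Egr4, outside the 10 genes, was under the floor too, at 85.3 and 81.2 (-0.059). Ier2, a nuclear protein gene induced together with Fos, read 70.3 and 68.1 (-0.038). Across the scalings tried Ier2 ran from -0.065 to -0.0028, and 53.1% of olfactory receptor genes had a lower difference than -0.038. Of the 5 genes under the floor, Fos, Fosb and Ier2 were lower, Egr2 was higher and Junb had no direction, where 61.5% of olfactory receptor genes were lower.

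**Figure D2:**
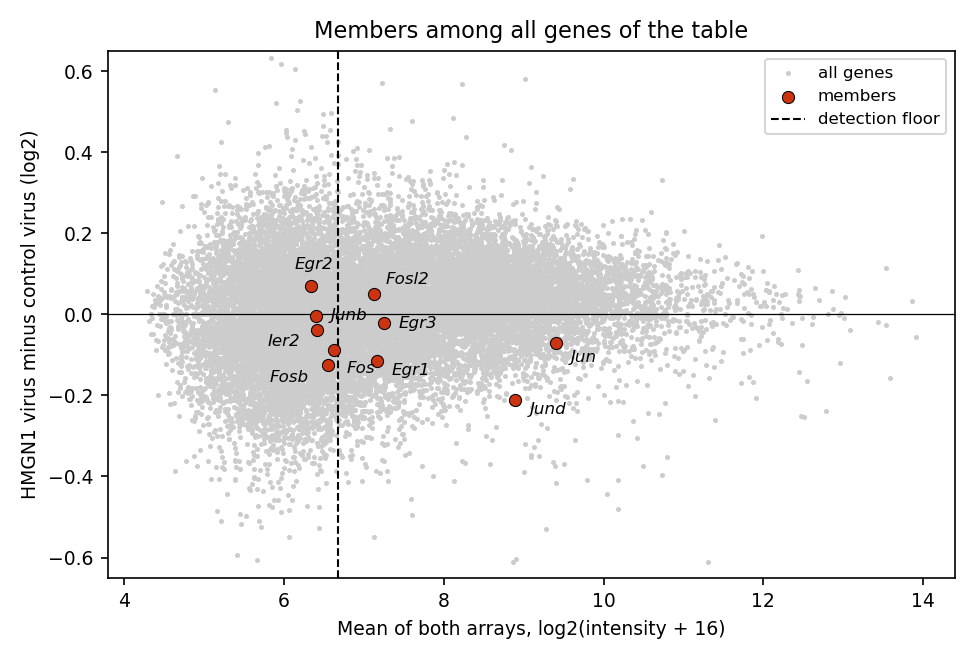
HMGN1 virus minus control virus (log2) against the mean of both arrays for all 19938 genes (grey; 7 lie beyond the axis) and the 10 members (red), with the detection floor dashed. Jund lies at -0.21 near the lower edge of the genes of its level, and the other 9 members lie inside the cloud, between -0.13 and 0.070.

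These genes are short, and short genes ran lower on this pair of arrays. Gene span (the length between both annotated ends in the RefSeq gene table) was 1.52 to 21.4 kb for the 10 members and under 8 kb for 9 of them. Among 973 protein-coding genes above the floor that span at most 4 kb, as Jun (3.19 kb), Jund (2.88 kb) and Egr1 (3.75 kb) do, the median difference was -0.027. In that class 58.9% of genes were lower, against 37.4% of all protein-coding genes above the floor, and 16.9% were at least 1.1-fold lower, against 6.23%. Among the 4158 that span over 8 and up to 32 kb, as Fosl2 does, the median was 0.023 and 39.7% were lower. With the trend of difference on span removed, Jund stood at -0.19, Egr1 at -0.10, Jun at -0.053 and Fosl2 at 0.021. The part of gene span in these values was not otherwise tested.

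**Figure D3:**
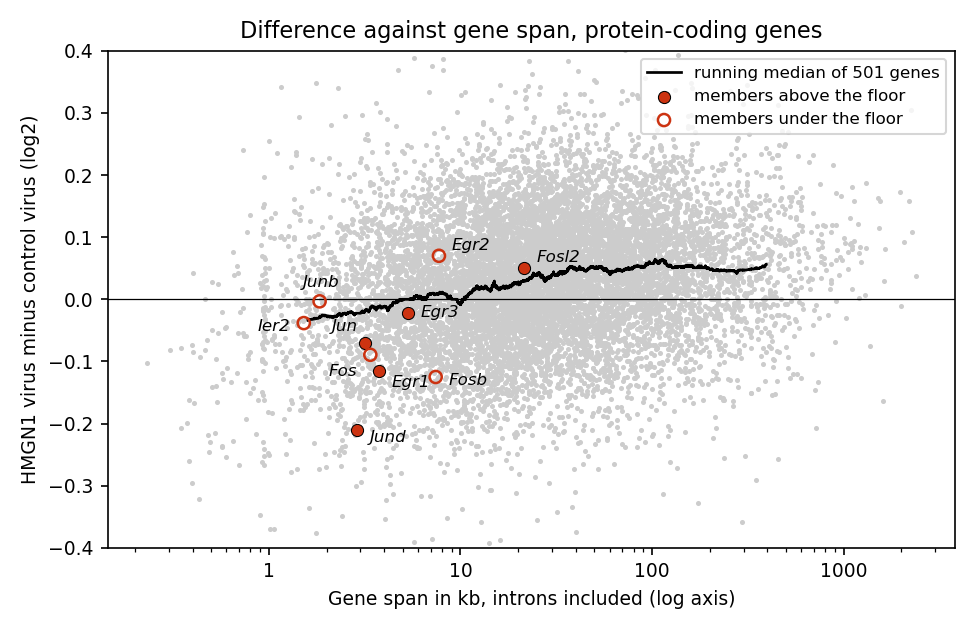
HMGN1 virus minus control virus (log2) against gene span (log axis) for 10882 protein-coding genes above the floor (grey; 14 lie beyond the axis), with their running median (black) and the members above (filled) and under (open) the floor. The running median climbs with span, and Jund, Jun and Egr1 lie below it while Fosl2 lies close to it.

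The other genes of the pathway are given from lists, beside the median of 0.027 and the 38.4% lower over all genes above the floor. Upstream, the FGF and EGF receptors, ligands and adaptors had 15 genes above the floor. Of these, 10 were higher and 5 lower (8 and 7 after centring), around a median of 0.067. With the gene span trend removed the counts were also 8 and 7, and the median was 0.016. Tgfa, a ligand of the EGF receptor (228 and 273, 0.24), and the adaptor Shc1 (87.8 and 105, 0.23) were highest, and Frs3 (-0.061) and Erbb2 (-0.049) were lowest. All 8 ERK cascade genes analysed here were higher, 5 of 8 after centring, quantile normalization or removal of either trend, and their median was 0.081, from the kinases Braf (0.0043) and Araf (0.0074) to the CREB and histone kinase gene Rps6ka5 (0.14) and the ERK kinase gene Map2k1 (287 and 320, 0.15). The JNK, p38 and ERK5 list had 12 higher and 7 lower of 19, and 9 higher and 10 lower with the gene span trend removed. Mapkapk2, a kinase downstream of p38 (769 and 666, -0.20), and Mapk14, p38α itself (-0.097), were lowest, and Map2k5 (0.19) and Map2k4, whose product activates JNK (0.16), highest. None of the 42 genes of these 3 lists reached a log2 difference of 0.322.

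The factors that bind immediate early promoters were all above the floor. Of these 17 genes 14 were higher and 3 lower (12 and 5 after centring on the median of all genes), and the list median was 0.070, between the SRF cofactor Mrtfa (227 and 213, -0.085) and the CREB coactivator Crtc2 (-0.077) at the low end and the SRF cofactor Mrtfb (361 and 392, 0.12) and the CREB coactivator Crtc3 (212 and 248, 0.21) at the high end. The 2 dimmer probe sets of Mrtfb gave 0.059 and 0.072. The activators were thus mostly higher, as were 60.1% of all genes, in the sample in which Jun, Jund and Egr1 were lower. With the gene span trend removed, 13 activators were higher and 4 lower, but their median fell to 0.018. The part of gene span in this contrast was not otherwise tested. Proteins that pair with Fos and Jun or resemble them had 13 higher and 9 lower of 22 above the floor, around a median of 0.059. With the gene span trend removed these counts were 12 and 10, around a median of 0.0081. Maf (226 and 286, 0.32) and Batf2 (0.28) were highest, and Batf3 (91.7 and 83.4, -0.12) and Nfe2l3 (-0.063) lowest. Batf3 was above the floor by its mean over both arrays, though under it on the HMGN1 virus array. The list of Egr cofactors and related regulators had 3 lower, 2 higher and 1 equal of 6 above the floor. After centring or removal of either trend, 5 were lower and 1 higher. Differences ran from Sp1 (-0.076) and the Egr corepressor Nab1 (-0.075) to Ep300 (0.024) and Crebbp (0.031).

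The list of inhibitors mixes Spry, Spred and Dusp genes, several of which ERK induces, with the Ras GTPase activators Nf1 and Rasa1 and with phosphatases of other kinases. Of its 18 genes above the floor, 10 were lower, 7 higher and 1 had the same value on both arrays, around a median of -0.013. The split was 12 lower and 6 higher after centring and 14 lower and 4 higher with the gene span trend removed. Spry4, an inhibitor of receptor tyrosine kinase signalling (129 and 107, -0.24), and the JNK and p38 phosphatase gene Dusp16 (234 and 198, -0.23) were lowest. Spred3 (0.18) and the ERK phosphatase gene Dusp6 (88.0 and 96.6, 0.12) were highest, so genes with related roles went both ways. Among 45 other immediate early genes above the floor 23 were lower and 20 higher (29 and 16 after centring), around a median of -0.0021. Btg2, an antiproliferative gene (1267 and 1029, -0.30), and the stress gene Gadd45a (142 and 117, -0.25) were lowest, whereas Gadd45b, of the same family (93.3 and 117, 0.28), and Nfil3 (0.19) were highest. None of them reached a log2 difference of 0.322.

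The share of listed AP-1 targets above the floor with the higher value was 92.9% and that of Egr targets 57.9%, where 60.1% of all genes were higher. Of 29 AP-1 target genes measured, 15 were under the floor, among them the proteases Mmp3, Mmp9 and Mmp13, and 13 of the other 14 were higher, 10 of 14 after centring, around a median of 0.077. Gfap, the astrocyte filament gene (406 and 615, 0.58), and the integrin gene Itgb1 (0.12) were highest, and S100a11 (368 and 328, -0.16; -0.15 on its other probe set) and Vim (0.013) lowest. Of 19 Egr target genes above the floor 11 were higher and 6 lower (9 and 10 with the intensity trend removed), around a median of 0.033, from Th (99.2 and 85.5, -0.18) and Igf2 (-0.11) to the cyclooxygenase gene Ptgs2 (0.15) and the myelin gene Mbp (107 and 134, 0.28). Th, too, was above the floor by its mean over both arrays but under it on the HMGN1 virus array. Many of these targets answer to other factors too. Genes above the floor whose promoter window holds the AP-1 site TGANTCA (487 genes) had a median difference of 0.026, against 0.028 for the 8571 with a window but no such site. For the Egr site GCGNGGGCG the medians were 0.033 over 1183 genes and 0.028 over 7875, and for the CArG box 0.031 over 145 genes and 0.028 over 8913. These medians are a description, and the difference between them was not tested.

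**Figure D4:**
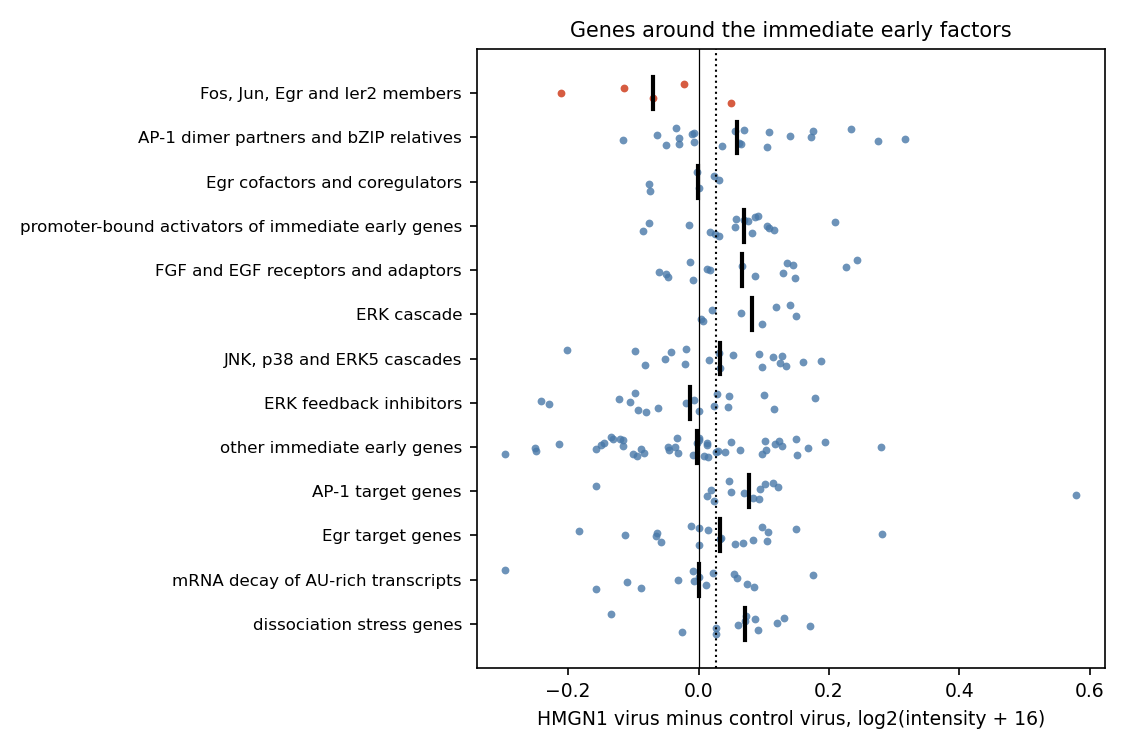
HMGN1 virus minus control virus (log2) for every gene above the floor in each list (points, spread vertically for sight) with list medians as black bars, 0 as a solid line and the median of all genes, 0.027, dotted. The 5 members above the floor (red) have a median of -0.071, and the ERK cascade list lies wholly above 0 as deposited, though not after centring.

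Lists on message decay and on stress from dissociation were examined because immediate early messages are unstable and cells were replated. Regulators of AU-rich messages had 7 lower, 7 higher and 1 equal of 15 above the floor, with a median of 0, and 10 lower and 5 higher after centring. Zfp36l1, a decay factor of such messages (648 and 579, -0.16), and Btg2 were lowest, and Auh (0.18) and the stabilising factor Elavl1 (1327 and 1408, 0.085) highest. Of 12 stress genes above the floor 10 were higher (9 after centring), with a median of 0.072. The mitochondrial chaperone Hspd1 (681 and 769, 0.17; 0.44 on its dimmer probe set) and Nfkbia (0.13) were highest. Socs3 (-0.13; -0.035 on a probe set under the floor) and Hspa8 (-0.025; -0.0087 and -0.050 on its other probe sets) were lowest. Whether any of these moved with the immediate early factors for a common reason was not tested.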

How the data were processed

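The deposited table holds a linear probe set intensity for 28944 probe sets on each of 2 one-colour biotin arrays (GeneChip whole-transcript labelling, per the labels' protocols). The steps by which the authors made these intensity values (background, normalization, summary of probes) are not stated in the labels or the table. No further normalization was applied. Probe sets with 1 symbol in GEO's platform annotation (21789) gave 19938 genes, each represented by its brightest probe set, and symbols and spans came from the RefSeq gene table (GRCm38.p6). The floor is the value below which 95% of the 1035 olfactory receptor probe sets lay. It was applied to the mean of both arrays, so a gene above it can lie under it on 1 array. Listed genes without a row in the gene table were not analysed here. With 1 array per group no test was possible, and the number of arrays limits the precision.

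Members and lists were chosen with earlier results of these data known. Named were all members, Hmgn1, Fosl1, Egr4 and the 2 highest and 2 lowest genes above the floor of each pathway list; the protease genes and cell markers named beyond this were chosen after their values were seen, as were the motifs TGACATCA and TGACG and the 4 kb class. The protein comparison that had been planned was not made. Alternatives were other offsets, quantile normalization, centring, loess trends on intensity or gene span (span 0.3), the mean of probe sets and other floors. The code, in Python 3.11.15 with pandas 2.3.3, numpy 2.4.6 and statsmodels 0.14.6, was tested on simulated data with planted changes.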

Additional observations from a re-analysis of the deposited data

How the results depend on the processing

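The direction of 9 of the 10 genes was the same under all 10 alternatives of scale, scaling, trend, probe set and floor, and Junb alone changed sign, under 3 of them. Only quantile normalization, centring and removal of either trend could change a sign. The offsets and floors could not, nor could the mean of probe sets, since each gene has 1 probe set. Jund ran from -0.25 to -0.19, Egr1 from -0.14 to -0.086 and Jun from -0.11 to -0.053. The median of the members above the floor ran from -0.11 with the intensity trend removed to -0.053 with the gene span trend removed. Above the floor 4 members were lower and 1 higher at any size. Without a floor all 10 genes enter, with 8 lower (Junb among them) and 2 higher. At 1.1-fold 1 was lower and 0 higher (2 lower after centring, where Egr1 joined Jund), and at a log2 difference of 0.322 and at 1.5-fold 0 were lower and 0 higher. The share of all genes above the floor that were lower, 38.4%, depended on the scaling: it was 41.0% after quantile normalization, 49.996% after centring, 49.8% with the intensity trend removed and 49.8% with the gene span trend removed. It was 36.1% with a floor above 99% of olfactory receptor probe sets, 36.4% with a floor equal to the median named probe set, 45.7% with no floor and 37.4% for protein-coding genes. Larger sizes can only lower the counts. Other floors and the choice of genes change which genes are counted, and the shares they gave are measured ones. Centring and trend removal set the share lower close to 50% by construction and cannot test it. For quantile normalization the cause was not tested. The medians of the JNK, p38 and ERK5 list and of the Egr target list changed sign under 1 alternative each. No replicate could be left out, since each virus has 1 array. No paired analysis was possible because there is a single array for either virus. Low signal limits Fos, Fosb, Junb, Egr2 and Ier2, which were under the floor. Fosl2, Egr1 and Egr3 were not far above it.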
